A study of Mus musculus with 20 samples.

Results

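Neutrophil genes were followed by poly-A RNA-seq in tumors that HEPA1-6 cells, a hepatoma line of the mouse, formed under the skin. The genes, taken by symbol, were Csf3r, Cxcr2, S100a8, S100a9 and Retnlg; 4 of the 5 have a row among the 14633 genes of the table used here, and Cxcr2 was not analysed here. All tumors were grown for 4 weeks in C57/BL6 mice and received an antibody, either against the chemokine CXCL10 or a control antibody, with or without GSK343, an inhibitor of the histone methyltransferase EZH2. The groups were anti-CXCL10 plus GSK343 (n = 5 libraries), control antibody plus GSK343 (n = 5), anti-CXCL10 without GSK343 (n = 5) and control antibody without GSK343 (n = 4, replicates 1, 2, 3 and 5; replicate 4 was not analysed here). Whether each tumor came from its own mouse is not stated, and the p-values given here cover only the variation from library to library, which may be partly technical. The tumors come from 1 cell line, and the labels name no vehicle, dose or isotype.

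Neutrophils are short-lived granulocytes that leave the bone marrow and enter inflamed tissue and tumors. CSF3R, the receptor of granulocyte colony-stimulating factor, drives their production, and CXCR2, the receptor of the CXCL1, CXCL2 and CXCL5 chemokines, draws them out of the marrow and into tissue. S100A8 and S100A9 are calcium-binding proteins that pair as calprotectin, fill much of the neutrophil cytosol, bind zinc and manganese when released and act on the receptors TLR4 and RAGE; monocytes also make them, and keratinocytes do so in irritated skin. Retnlg encodes a secreted protein of the resistin family found in mouse neutrophils and has no human counterpart. The RNA came from whole tumors, where the number of neutrophils, the RNA per neutrophil and RNA from other cells cannot be told apart.

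Positions are those of the table, on GRCm38. Csf3r (ENSMUSG00000028859) lies on the plus strand at chr4:126024550-126044440. S100a8 (ENSMUSG00000056054) lies on the plus strand at chr3:90669071-90670034, and S100a9 (ENSMUSG00000056071) on the minus strand at chr3:90692632-90695721, which leaves 22597 bp between the pair. Retnlg (ENSMUSG00000022651) lies on the plus strand at chr16:48872608-48874498. All 4 are annotated as protein-coding, and 0 annotated genes overlap any of them.

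The bases just before the start sites of S100a8 and S100a9, the pair with the closest levels from library to library, and of Retnlg, the gene with the largest change, are given 5′ to 3′ on the strand of the gene. Each is the 250 bases before the RefSeq start on GRCm38.p6. Capitals mark matches, on either strand, to 3 short patterns: TTNNGNAA, a core of sites for C/EBP factors of granulocyte differentiation, GAGGAA, a core of sites for the myeloid factor PU.1, and TATAAA, the TATA box.
S100a8: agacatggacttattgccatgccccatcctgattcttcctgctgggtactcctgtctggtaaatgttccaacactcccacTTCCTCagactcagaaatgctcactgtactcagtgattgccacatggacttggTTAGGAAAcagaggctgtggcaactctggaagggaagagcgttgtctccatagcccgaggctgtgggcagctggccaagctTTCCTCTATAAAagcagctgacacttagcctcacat
S100a9: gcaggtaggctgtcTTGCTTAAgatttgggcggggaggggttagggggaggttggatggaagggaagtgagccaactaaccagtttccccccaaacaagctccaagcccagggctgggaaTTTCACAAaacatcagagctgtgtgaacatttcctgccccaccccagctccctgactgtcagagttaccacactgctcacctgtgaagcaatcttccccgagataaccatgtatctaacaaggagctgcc
Retnlg: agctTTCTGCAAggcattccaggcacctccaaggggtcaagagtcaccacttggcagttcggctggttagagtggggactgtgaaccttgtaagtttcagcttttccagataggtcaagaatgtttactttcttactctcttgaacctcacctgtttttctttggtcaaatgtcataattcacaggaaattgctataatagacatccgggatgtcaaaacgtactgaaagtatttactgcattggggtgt
S100a8 had a TTNNGNAA match 117 to 110 bases before its start, 2 GAGGAA matches on the opposite strand (170 to 165 and 36 to 31 bases before) and a TATAAA match 30 to 25 bases before, which abuts the nearer GAGGAA match. S100a9 had 2 TTNNGNAA matches on the opposite strand, 236 to 229 and 130 to 123 bases before its start. Retnlg had 1 TTNNGNAA match, 246 to 239 bases before. In Csf3r the window held 1 GAGGAA match, 86 to 81 bases before the RefSeq start. This window (chr4:126024409-126024658) reaches into the gene as placed above, and the match lies inside it. TTNNGNAA thus occurred in 3 of the 4 windows, GAGGAA in 2 and TATAAA in 1, whereas of 32817 windows of this length before RefSeq starts 36.8%, 23.3% and 12.4% held them. With short patterns that are this common, the matches describe letters and not sites.

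Values are FPKM, which are per length and can be set side by side between genes. Over the 19 libraries S100a9 averaged 26.0 FPKM, more than 76.2% of the genes in the table, and S100a8 22.7 FPKM, more than 73.3%. Retnlg averaged 13.5 FPKM, more than 60.3% of genes. Csf3r, a receptor, was the lowest at 2.45 FPKM, more than 19.4% of genes. All 4 varied more between libraries than most genes did: the SD of log2(FPKM + 1) over the libraries was 1.02 for Retnlg, more than in 98.2% of genes, 0.81 for S100a8 (96.8%), 0.72 for S100a9 (95.7%) and 0.49 for Csf3r (88.2%).

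Some libraries stand apart by markers of other tissues. Each list of markers was scored by averaging log2(FPKM + 1) over its genes. The skeletal muscle score (19 of 21 listed genes in the table) was 3.90 ± 1.93 with control antibody plus GSK343 and 1.65 ± 0.53 with control antibody (SD, n = 5 and 4), and the 3 highest scores of all were those of control antibody plus GSK343 replicates 4 (6.51), 3 (4.53) and 5 (4.44). Summed FPKM of these genes ranged from 64.9 to 2777 with control antibody plus GSK343, against 31.5 to 126 with control antibody. The keratinocyte score (17 of 21 genes) had its highest value in control antibody replicate 2 (5.33). High scores also occurred in replicate 2 of anti-CXCL10 (4.22), control antibody plus GSK343 (4.11) and anti-CXCL10 plus GSK343 (3.77), and in replicate 3 of the last (3.15). Control antibody replicate 3, the highest of its group for S100a8 and S100a9, scored 3.75. Calls of the neutrophil genes and the counts of the lists are given with and without the 3 muscle-rich libraries, and the part of these tissues in them was not tested otherwise. Leaving out those libraries keeps only replicates 1 and 2 of control antibody plus GSK343, so a call lost there cannot be told apart from lost power. Library labels carry an S number that runs over the control antibody libraries and starts again in the anti-CXCL10 libraries. Comparisons of GSK343 lie within one such set, while in comparisons between antibodies the set and the antibody cannot be told apart.

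Under GSK343 with control antibody Retnlg rose and the other 3 genes did not pass the test, so that 1 of 4 was called, where 5.55% of all 14633 genes were called (4.43% as higher). In the GSK343-treated tumors, Retnlg and Csf3r were lower with anti-CXCL10 than with control antibody, so that 2 of 4 were called, where 10.3% of all genes were called (6.83% as lower). Those comparisons share the 5 libraries of control antibody plus GSK343. With anti-CXCL10, GSK343 called 0 of 4 and 0% of all genes by limma (422 genes had an unadjusted p under 0.05, none of them one of the 4). Without GSK343, anti-CXCL10 against control antibody called 0 of 4, where 0.0137% of genes were called, and anti-CXCL10 plus GSK343 against control antibody called 0 of 4, where 0.00683% were called. The test of whether the change under GSK343 differed between the antibodies (the interaction) called 0 of 4, where 0.041% of genes were called.

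**Figure D1:**
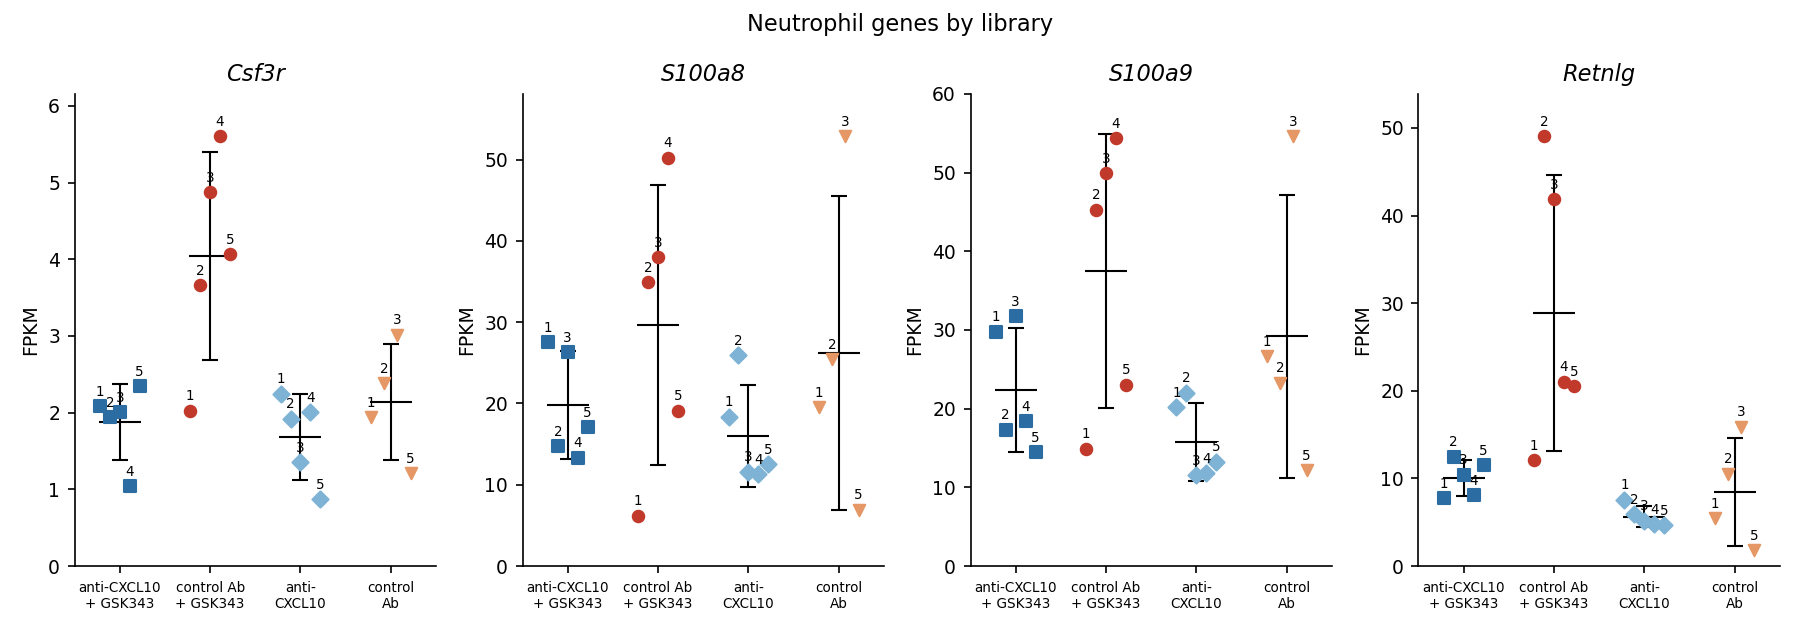
FPKM of each neutrophil gene (y axis, linear, from 0) in every library, with the 4 groups along the x axis; numbers are replicates, and black bars give the mean and SD. Retnlg had 12.1 to 49.0 FPKM with control antibody plus GSK343, against 1.83 to 15.9 FPKM with control antibody.

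Of the receptors, Csf3r was the member measured. It had 2.03, 3.66, 4.87, 5.60 and 4.07 FPKM in replicates 1 to 5 of control antibody plus GSK343, against 1.94, 2.39, 3.01 and 1.21 FPKM in control antibody replicates 1, 2, 3 and 5. All GSK343 libraries but replicate 1 lay above every control library. With anti-CXCL10 plus GSK343 the gene had 2.08, 1.94, 2.01, 1.04 and 2.35 FPKM, against 2.25, 1.92, 1.35, 2.01 and 0.875 FPKM with anti-CXCL10, and these groups overlapped.

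The Csf3r level averaged 4.05 ± 1.35 FPKM with control antibody plus GSK343 and 2.14 ± 0.76 FPKM with control antibody (SD, n = 5 and 4). The log2 change was 0.67 ± 0.22 (SE; limma adjusted p = 0.0953), which did not pass the threshold of 0.05. With 1 library left out at a time the log2 change was 0.51 to 0.84, and it passed in 1 of 19 fits. That fit left out replicate 1 of control antibody plus GSK343, the lowest of its group (0.84, limma adjusted p = 0.0125). Csf3r did not pass without the 3 muscle-rich libraries either. There replicates 1 and 2 of that group remain, at 2.03 and 3.66 FPKM, against the control mean of 2.14 FPKM. In GSK343-treated tumors, Csf3r was lower with anti-CXCL10, at 1.88 ± 0.50 FPKM against 4.05 ± 1.35 FPKM with control antibody (n = 5 each), by a log2 change of -0.78 ± 0.21 (limma adjusted p = 0.0265). All 5 anti-CXCL10 plus GSK343 libraries lay below the mean of the other group, and 3 of 5 lay below every one of its libraries.

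That Csf3r call moved with the muscle-rich libraries. Without those 3 libraries the log2 change was -0.40 ± 0.26 (adjusted p = 0.390), and with muscle and keratinocyte scores as covariates it was -0.48 ± 0.23 (adjusted p = 0.274). It was also lost, one library at a time, without control antibody plus GSK343 replicate 3 (adjusted p = 0.0686), 4 (0.0652) or 5 (0.0505) and without anti-CXCL10 plus GSK343 replicate 4 (0.0672). Over the 19 libraries the muscle score and Csf3r had r = 0.61 and rho = 0.34, as a description. Among the remaining comparisons, Csf3r differed by 0.11 ± 0.21 under GSK343 with anti-CXCL10 (95% interval -0.33 to 0.56), by -0.22 ± 0.22 under anti-CXCL10 without GSK343, and by -0.56 ± 0.31 in the interaction (adjusted p = 0.479).

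The cytosolic pair came next in the order of roles. S100a8 had 6.18, 34.9, 38.0, 50.2 and 19.1 FPKM in replicates 1 to 5 of control antibody plus GSK343, against 19.5, 25.5, 52.8 and 6.96 FPKM in control antibody replicates 1, 2, 3 and 5. S100a9 had 14.9, 45.3, 49.9, 54.3 and 23.0 FPKM in the same GSK343 libraries, against 26.6, 23.3, 54.6 and 12.2 FPKM in the control libraries. The groups overlapped over nearly their whole range, and within each group the same libraries were high and low for both genes.

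In the tumors given anti-CXCL10 the values covered a smaller range. S100a8 had 27.6, 14.7, 26.3, 13.3 and 17.0 FPKM with anti-CXCL10 plus GSK343, against 18.4, 25.9, 11.6, 11.3 and 12.5 FPKM with anti-CXCL10. S100a9 had 29.8, 17.4, 31.7, 18.4 and 14.4 FPKM with anti-CXCL10 plus GSK343, against 20.2, 22.1, 11.5, 11.8 and 13.3 FPKM with anti-CXCL10. Here too the groups overlapped.

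None of the comparisons moved S100a8 or S100a9 past the threshold in limma. Under GSK343 with control antibody, S100a8 averaged 29.7 ± 17.2 FPKM, against 26.2 ± 19.4 FPKM with control antibody alone, a log2 change of 0.20 ± 0.53 (95% interval -0.91 to 1.32, adjusted p = 0.887). That sign was not stable: without the 3 muscle-rich libraries it was -0.45. S100a9 averaged 37.5 ± 17.5 FPKM with GSK343, against 29.2 ± 18.0 FPKM without, a log2 change of 0.39 ± 0.40 (95% interval -0.46 to 1.23, adjusted p = 0.673). Under GSK343 with anti-CXCL10, S100a9 differed by 0.46 ± 0.38 and S100a8 by 0.31 ± 0.50 (adjusted p = 0.9999 each). The intervals are wide enough to hold a change of 2-fold in several of these comparisons, so that similar levels are not shown.

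Between antibodies the S100a8 and S100a9 means were lower with anti-CXCL10, without passing the test. In GSK343-treated tumors, S100a9 averaged 22.3 ± 7.85 FPKM with anti-CXCL10 and 37.5 ± 17.5 FPKM with control antibody (log2 change -0.63 ± 0.38, adjusted p = 0.307), and S100a8 averaged 19.8 ± 6.66 FPKM with anti-CXCL10 and 29.7 ± 17.2 FPKM with control antibody (-0.34 ± 0.50, adjusted p = 0.716). Without the 3 muscle-rich libraries the S100a8 change turned to 0.31 ± 0.64. Without GSK343, S100a9 averaged 15.8 ± 4.97 FPKM with anti-CXCL10 and 29.2 ± 18.0 FPKM with control antibody (-0.71 ± 0.40, adjusted p = 0.758). All 5 anti-CXCL10 libraries lay below the control mean, which rests in part on replicate 3 at 54.6 FPKM. S100a8 averaged 15.9 ± 6.27 FPKM with anti-CXCL10 and 26.2 ± 19.4 FPKM with control antibody (-0.45 ± 0.53, adjusted p = 0.869).

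S100a8 stayed near or below S100a9 in level. The ratio of S100a8 to S100a9 in FPKM had a median of 0.911 over the 19 libraries, ranged from 0.415 to 1.18 and was under 1 in 15 of them. In the library of control antibody plus GSK343 with the lowest ratio, replicate 1, S100a8 was at 6.18 FPKM and S100a9 at 14.9 FPKM.

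The secreted Retnlg was the member that rose under GSK343 with control antibody. It had 12.1, 49.0, 41.8, 21.03 and 20.5 FPKM in replicates 1 to 5 of control antibody plus GSK343, against 5.48, 10.5, 15.9 and 1.83 FPKM in control antibody replicates 1, 2, 3 and 5. Replicate 1 was the one GSK343 library under the highest control library. With anti-CXCL10 plus GSK343 it had 7.77, 12.5, 10.4, 8.10 and 11.5 FPKM, against 7.59, 5.93, 5.18, 4.76 and 4.66 FPKM with anti-CXCL10. All 5 libraries with GSK343 lay above all 5 without it, though the closest pair was near, at 7.77 and 7.59 FPKM; in 0.273% of all genes these groups did not overlap in this direction.

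The mean of Retnlg was 28.9 ± 15.7 FPKM with control antibody plus GSK343 and 8.43 ± 6.12 FPKM with control antibody (SD, n = 5 and 4). The log2 change was 1.78 ± 0.42 (95% interval 0.90 to 2.66, limma adjusted p = 0.0192), or 3.44-fold on the FPKM + 1 scale. The size held but the call did not without the 3 muscle-rich libraries (1.72 ± 0.57, adjusted p = 0.183), with the marker covariates (1.86 ± 0.43, adjusted p = 0.0728) and in a fit of the compared groups alone (adjusted p = 0.132). Leaving out 1 library at a time gave 1.298 to 2.16 and kept the call in 15 of 19 fits; it was lost without control antibody replicate 1 (adjusted p = 0.0699) or 5 (0.0695) and without control antibody plus GSK343 replicate 2 (0.0523) or 3 (0.0603). Retnlg shared 31 of its 1126 31-base words with Retnla, a resistin-family neighbor, and how the authors assigned fragments common to both is not stated. S100a8 and S100a9 shared 0 words with other coding transcripts, and Csf3r shared 210 of 6946.

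With anti-CXCL10 the Retnlg level averaged 10.1 ± 2.08 FPKM with GSK343 and 5.62 ± 1.21 FPKM without it (n = 5 each). The log2 change was 0.74 ± 0.40 (95% interval -0.09 to 1.57), with an unadjusted limma p of 0.0789 and an adjusted p of 0.9999. The interaction was -1.04 ± 0.58 (adjusted p = 0.477), so a smaller change under anti-CXCL10 was not shown. In GSK343-treated tumors, Retnlg averaged 10.1 ± 2.08 FPKM with anti-CXCL10 and 28.9 ± 15.7 FPKM with control antibody, a log2 change of -1.28 ± 0.40 (adjusted p = 0.0463). All 5 anti-CXCL10 plus GSK343 libraries lay below the mean of the other group, and 4 of 5 below each of its libraries. This call sat at the threshold: with 1 library left out at a time it passed in 4 of 19 fits, those without control antibody replicates 2 (adjusted p = 0.0493), 3 (0.0309) or 5 (0.0176) and without control antibody plus GSK343 replicate 1 (0.0147), and elsewhere reached at most 0.118. Without the 3 muscle-rich libraries the log2 change was -1.23 ± 0.55 (adjusted p = 0.207), and with the marker covariates it was -1.20 ± 0.42 (adjusted p = 0.145). Without GSK343, Retnlg differed by -0.24 ± 0.42 between anti-CXCL10 and control antibody (adjusted p = 0.920), and anti-CXCL10 plus GSK343 differed from control antibody by 0.50 ± 0.42 (adjusted p = 0.937).

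**Figure D2:**
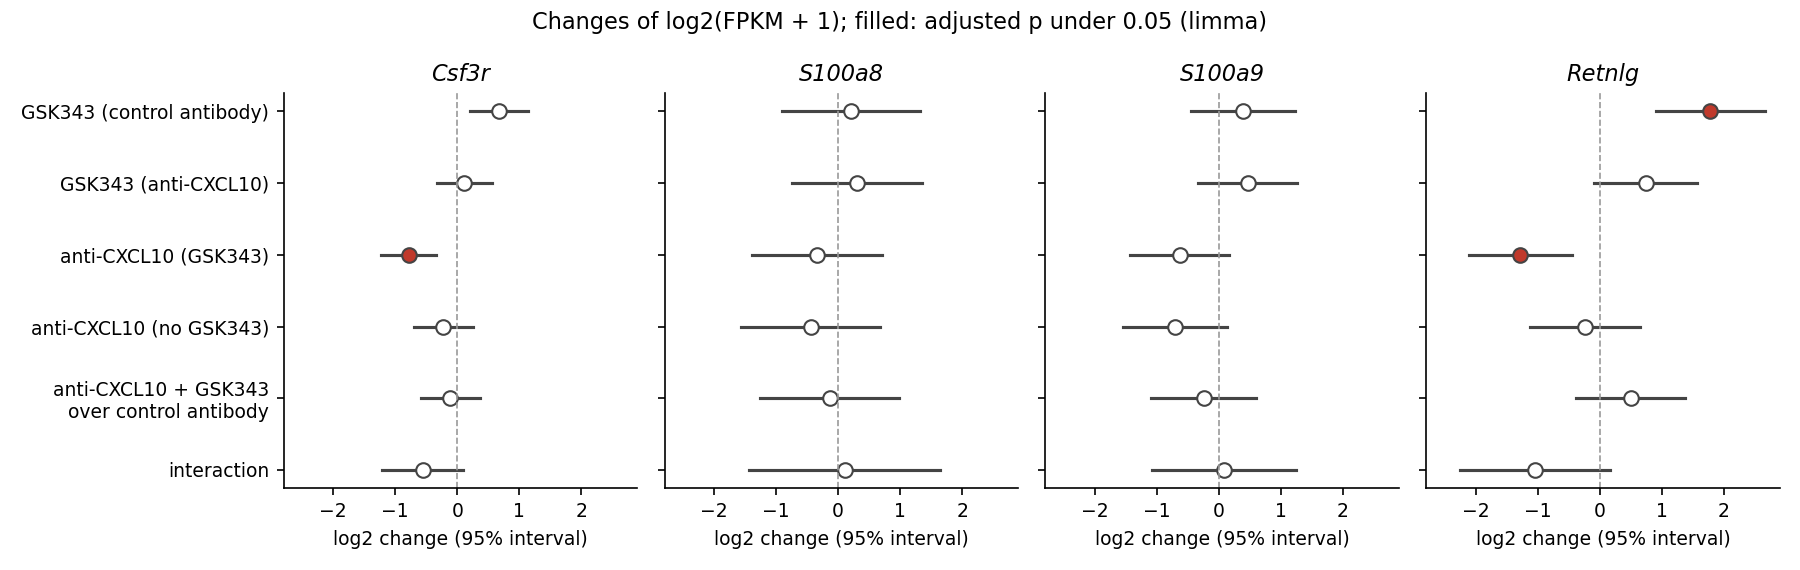
Log2 changes of FPKM + 1 (x axis) of the 4 neutrophil genes in the 6 comparisons, with 95% intervals from limma; filled points passed an adjusted p of 0.05, and the antibody or drug common to both groups is in brackets. Retnlg under GSK343 with control antibody (1.78) and Retnlg (-1.28) and Csf3r (-0.78) under anti-CXCL10 in GSK343-treated tumors are filled.

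By mean level the groups fell in an order that differed between members. For Csf3r, S100a8 and S100a9 control antibody plus GSK343 was highest, then control antibody, anti-CXCL10 plus GSK343 and anti-CXCL10; for Retnlg anti-CXCL10 plus GSK343 was above control antibody. Neighbors in these orders did not differ past the threshold in limma, with the exception that Retnlg in control antibody plus GSK343 was above anti-CXCL10 plus GSK343, the next in its order. Whether Retnlg moved more than another member was compared as a difference of log2(FPKM + 1) within each library, by exact two-sided permutation tests over 24 such comparisons. Under GSK343 with control antibody the log2 difference of Retnlg minus S100a8 was 0.07 ± 0.78 with GSK343 and -1.51 ± 0.22 without (SD, n = 5 and 4, exact p = 0.0317, adjusted p = 0.254). The smallest exact p of the family was 0.0159, for Retnlg minus Csf3r under GSK343 with anti-CXCL10, also with an adjusted p of 0.254. This family could hardly reach the threshold: the smallest exact p is 0.00794 with 5 against 5 libraries and 0.0159 with 5 against 4, which for a single comparison gives adjusted values of 0.190 and 0.381, so whether Retnlg moved more than another member was not resolved.

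In the groups given control antibody the 4 genes largely shared their high and low libraries. Among control antibody libraries, replicate 3 was the highest and replicate 5 the lowest for 4 of 4 genes. With control antibody plus GSK343, replicate 1 was the lowest for 4 of 4, and replicate 4 the highest for 3 of 4, the exception being Retnlg, highest in replicate 2. In the groups given anti-CXCL10, no replicate was the highest, and none the lowest, for more than 2 of the 4 genes; with anti-CXCL10 plus GSK343 each gene had another highest replicate.

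Over the 19 libraries S100a8 and S100a9 had the closest levels (r = 0.915, rho = 0.942, permutation p = 1e-05 for each, the smallest that 100000 resamples can give; adjusted p = 6e-05 over 6 pairs). Leaving out the 2 libraries farthest from the median gave r = 0.933, and after subtraction of the group means r was 0.952. Within the 9 control antibody libraries r was 0.959 (permutation p = 0.000157), and within the 10 anti-CXCL10 libraries it was 0.910 (permutation p = 0.0004). The relation of this pair therefore held within each set of libraries.

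Retnlg and Csf3r came next, with r = 0.820 and rho = 0.811 (permutation p = 4e-05 and 7e-05, adjusted 0.00012 and 0.00021) and r = 0.835 without the 2 farthest libraries. After subtraction of the group means r was 0.639, the lowest of the 6 pairs. Within the control antibody libraries r was 0.855 (permutation p = 0.00301), but within the anti-CXCL10 libraries it was 0.479 (permutation p = 0.164). The other 4 pairs had r from 0.639 to 0.763 over all libraries, and each passed adjustment. Within the anti-CXCL10 libraries none of these 4 passed, with r from 0.364 to 0.533, and those of Retnlg with S100a8 did not pass within the control antibody libraries either (r = 0.649, permutation p = 0.0571).

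**Figure D3:**
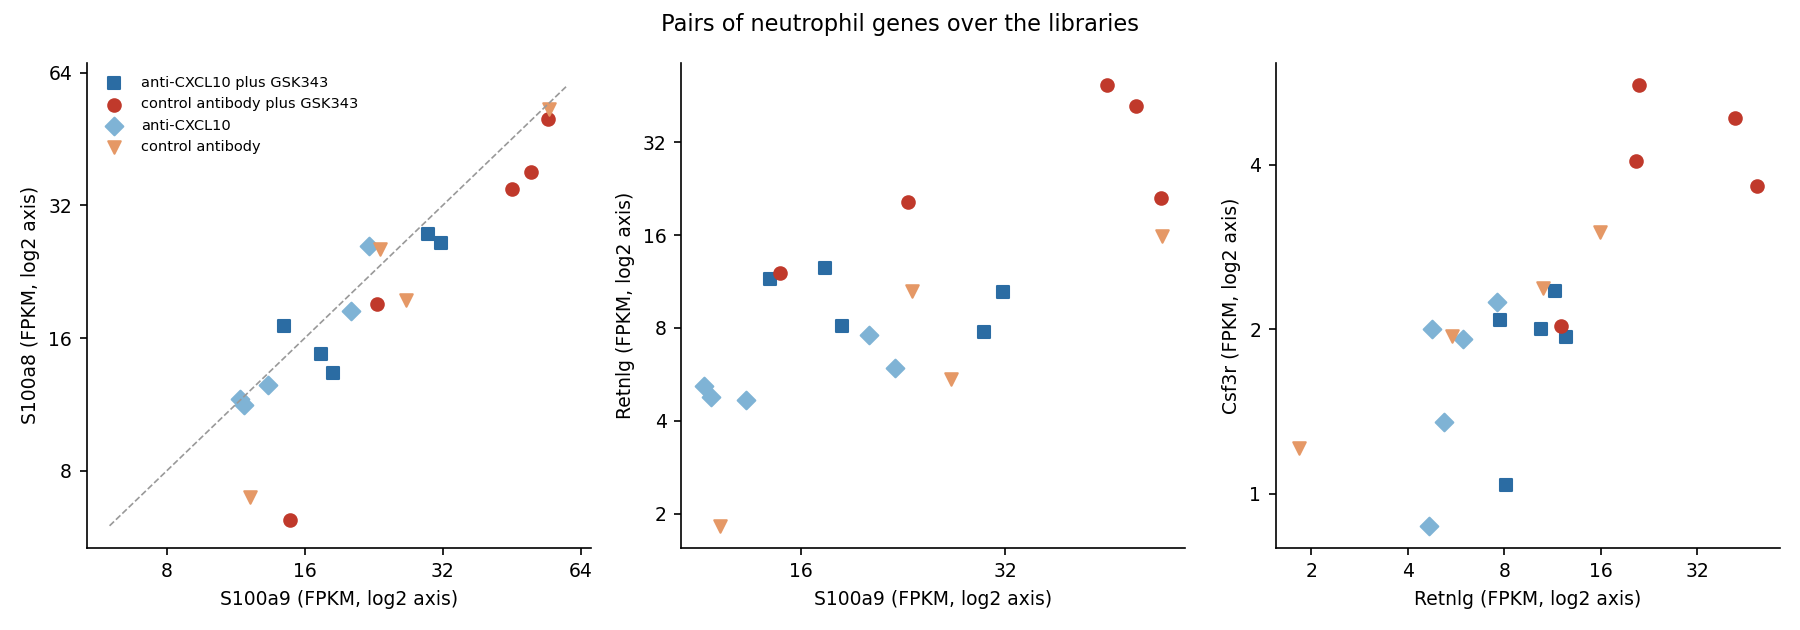
FPKM of S100a8 against S100a9, Retnlg against S100a9 and Csf3r against Retnlg, on log2 axes, with a point for each of the 19 libraries by group; the dashed line marks equal FPKM. S100a8 and S100a9 lie close to a line in all groups (r = 0.915), whereas in the middle panel 4 of the control antibody plus GSK343 libraries have at least 20.5 FPKM of Retnlg.

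The genes with the levels most like each member were taken over the 19 libraries by Pearson r of log2(FPKM + 1), among 11605 genes with a given name, as a description. For Retnlg they were Ccr1 (0.953), a chemokine receptor of myeloid cells, Samsn1 (0.929) and Cd84 (0.907), a SLAM-family receptor. For Csf3r they were Slc2a6 (0.926), Parvb (0.918) and Ap1s2 (0.917). For S100a9 they were Nts (0.876), which encodes the peptide neurotensin, Hdc (0.872), the histamine-forming enzyme, and Il1r2 (0.840), the decoy receptor for interleukin-1; for S100a8 they were Nts (0.857), Spon1 (0.847) and Atf6b (0.813). By the mean of the r values with the 4 members, Hdc came first (0.841), and the top 10 went on with Nts, Spon1, Pla2g7, Gpr34, Il4ra, Il1r2, Ccr1, Emb and Plek (0.770). Of those 10 genes, 5 were again in the top 10 after subtraction of the group means.

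Genes of the ligands, receptors and partners of the members were counted from lists, beside the median change of all genes, which lay between -0.03 and 0.04 on the log2 scale in each comparison. Of all genes, 4.43% rose under GSK343 with control antibody, and 6.83% were lower with anti-CXCL10 in GSK343-treated tumors. Of the 7 genes listed as ligands of CXCR2, 0 passed under GSK343 with either antibody or under anti-CXCL10 in GSK343-treated tumors. Cxcl1 averaged 17.6 ± 5.17 FPKM with control antibody plus GSK343 and 17.5 ± 15.6 FPKM with control antibody (log2 change 0.27 ± 0.38, adjusted p = 0.769). Cxcl2 averaged 18.5 ± 5.67 FPKM with GSK343 and 12.9 ± 7.65 FPKM without (0.59 ± 0.34, adjusted p = 0.371). Cxcl3, Cxcl5 and Ppbp, which encode further CXCR2 chemokines, differed by -0.09 ± 0.14, -0.21 ± 0.14 and -0.58 ± 0.24 on the log2 scale. In GSK343-treated tumors, Cxcl1 was at 8.09 ± 3.45 FPKM with anti-CXCL10 and 17.6 ± 5.17 FPKM with control antibody (-1.05 ± 0.35, adjusted p = 0.0665), and Cxcl2 at 9.92 ± 4.98 FPKM with anti-CXCL10 and 18.5 ± 5.67 FPKM with control antibody (-0.91 ± 0.32, adjusted p = 0.0770). Csf3, the ligand of CSF3R, and Cxcr1 were not analysed here.

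Where 4.43% of all genes rose under GSK343 with control antibody, 3 of 17 measured genes of CSF3R signaling rose and 0 fell (median log2 change 0.21). Among them were the kinase Syk (6.80 ± 1.16 FPKM with GSK343 and 3.73 ± 0.64 FPKM without, log2 change 0.72 ± 0.13, adjusted p = 0.00521) and the feedback inhibitor Socs1 (1.299, adjusted p = 0.00765). In GSK343-treated tumors 5 of the 17 were lower and 1 was higher with anti-CXCL10 (median -0.16), the lower ones including Syk (-0.78) and Socs1 (-1.06); the higher one was the adaptor Shc1 (0.27, adjusted p = 0.0368). Jak2, Stat3 and Cebpb did not pass in either. Syk and Socs1 also act in macrophages and other leukocytes.

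Of 11 genes of receptors and signaling of S100A8 and S100A9, 1 rose under GSK343 with control antibody, where 4.43% of all genes did. It was the adaptor Myd88 (0.41 ± 0.11, adjusted p = 0.0417), and 0 of the 11 passed without the 3 muscle-rich libraries or with marker covariates. Tlr4 averaged 4.36 ± 2.58 FPKM with GSK343 and 4.47 ± 1.25 FPKM without (-0.22 ± 0.47), and Ager, which encodes RAGE, 2.09 ± 0.46 FPKM with GSK343 and 1.66 ± 0.63 FPKM without (0.23 ± 0.18); neither passed. Of 9 other S100-family genes 0 passed, with a median log2 change of 0.02, and Retnla, a resistin-family gene of alternatively activated macrophages, averaged 76.4 ± 71.5 FPKM with GSK343 and 40.8 ± 42.6 FPKM without (1.15 ± 0.73, adjusted p = 0.429). Retn was not analysed here.

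Among granule protein genes, 12 of 20 listed were in the table. Of those of primary granules, Prtn3 was measured, while Mpo and Elane were not analysed here. Under GSK343 with control antibody 1 of 12 rose, where 4.43% of all genes did, and 0 fell, with a median log2 change of -0.28. The riser was Lyz2, the lysozyme that macrophages also make (523 ± 290 FPKM with GSK343 and 172 ± 23.9 FPKM without, 1.43 ± 0.30, adjusted p = 0.0101). In GSK343-treated tumors, Lyz2 (-1.21) and Chil3 (-2.70), a chitinase-like protein also of macrophages and monocytes, were lower and Padi4 (0.91), the enzyme that citrullinates histones in neutrophil traps, was higher with anti-CXCL10 (median of the 12 -0.45). All 3 of these calls were lost without the 3 muscle-rich libraries, where the median was 0.02, and with marker covariates, where it was -0.23.

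Where 4.43% of all genes rose under GSK343 with control antibody, 5 of 23 measured surface and cytosolic markers rose and 0 fell (median 0.45). They included Ptafr (0.99), the receptor of platelet-activating factor, Clec4d (1.40), a C-type lectin receptor, and Acod1 (1.58), which makes itaconate. In GSK343-treated tumors 6 were lower and 0 higher with anti-CXCL10, where 6.83% of all genes were lower. Among the 6 were Ptafr (-1.04), Clec4d (-1.02) and Acod1 (-1.39). Ly6g, the defining surface antigen of mouse neutrophils, did not pass: it averaged 1.17 ± 0.74 FPKM with control antibody plus GSK343 and 1.46 ± 0.58 FPKM with control antibody (-0.21 ± 0.28, adjusted p = 0.746). In GSK343-treated tumors it averaged 1.43 ± 0.85 FPKM with anti-CXCL10 and 1.17 ± 0.74 FPKM with control antibody (0.17 ± 0.26).

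The phagocyte oxidase and leukocyte adhesion lists hold genes that neutrophils share with other leukocytes. Beside their counts, 4.43% of all genes rose under GSK343 with control antibody. With anti-CXCL10 in GSK343-treated tumors, 6.83% of all genes were lower. Of 6 subunits of the NADPH oxidase, which makes superoxide in neutrophils and macrophages, 6 rose under GSK343 with control antibody (median 0.99), for example Cybb, its catalytic subunit, at 25.5 ± 5.61 FPKM with GSK343 and 10.8 ± 2.03 FPKM without (1.15 ± 0.20, adjusted p = 0.00375). In GSK343-treated tumors all 6 were lower with anti-CXCL10 (median -0.87). Of 12 integrins and trafficking genes, 8 rose under GSK343 with control antibody (median 0.97), led by Selplg (1.09), a selectin ligand, and Tyrobp (1.11), Fcer1g (1.09) and Itgb2 (1.32), which many myeloid cells use, and 8 were lower with anti-CXCL10 in GSK343-treated tumors (median -0.74). Itgam, the alpha chain of the neutrophil integrin Mac-1, was not one of the 8 (0.54 ± 0.27, adjusted p = 0.285). Under GSK343 with anti-CXCL10, 0 genes of all these lists passed.

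These counts moved with the muscle-rich libraries. Without those 3 libraries, 0 genes of the CSF3R signaling, granule, surface marker, oxidase and adhesion lists passed under GSK343 with control antibody, while the median log2 change was 0.88 for the oxidase subunits and 0.83 for the adhesion genes. Under anti-CXCL10 with GSK343, 0 of 6 oxidase subunits (median -0.71), 1 of 12 adhesion genes (median -0.64), 1 of 23 surface and cytosolic markers and 1 of 17 CSF3R signaling genes passed without them, each as lower. With marker covariates 1 of 6 oxidase subunits rose and 0 of 12 adhesion genes passed under GSK343 with control antibody (medians 0.87 and 0.79). In that fit 2 of 17 CSF3R signaling genes also rose (median 0.10), and 0 of 23 surface and cytosolic markers passed. For anti-CXCL10 with GSK343 the covariates left 1 of 17 CSF3R signaling genes and 1 of 23 surface and cytosolic markers, each as lower. There 0 of 6 oxidase subunits and 0 of 12 adhesion genes passed. Calls over all genes fell in these fits too, by the numbers given in the closing section.

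**Figure D4:**
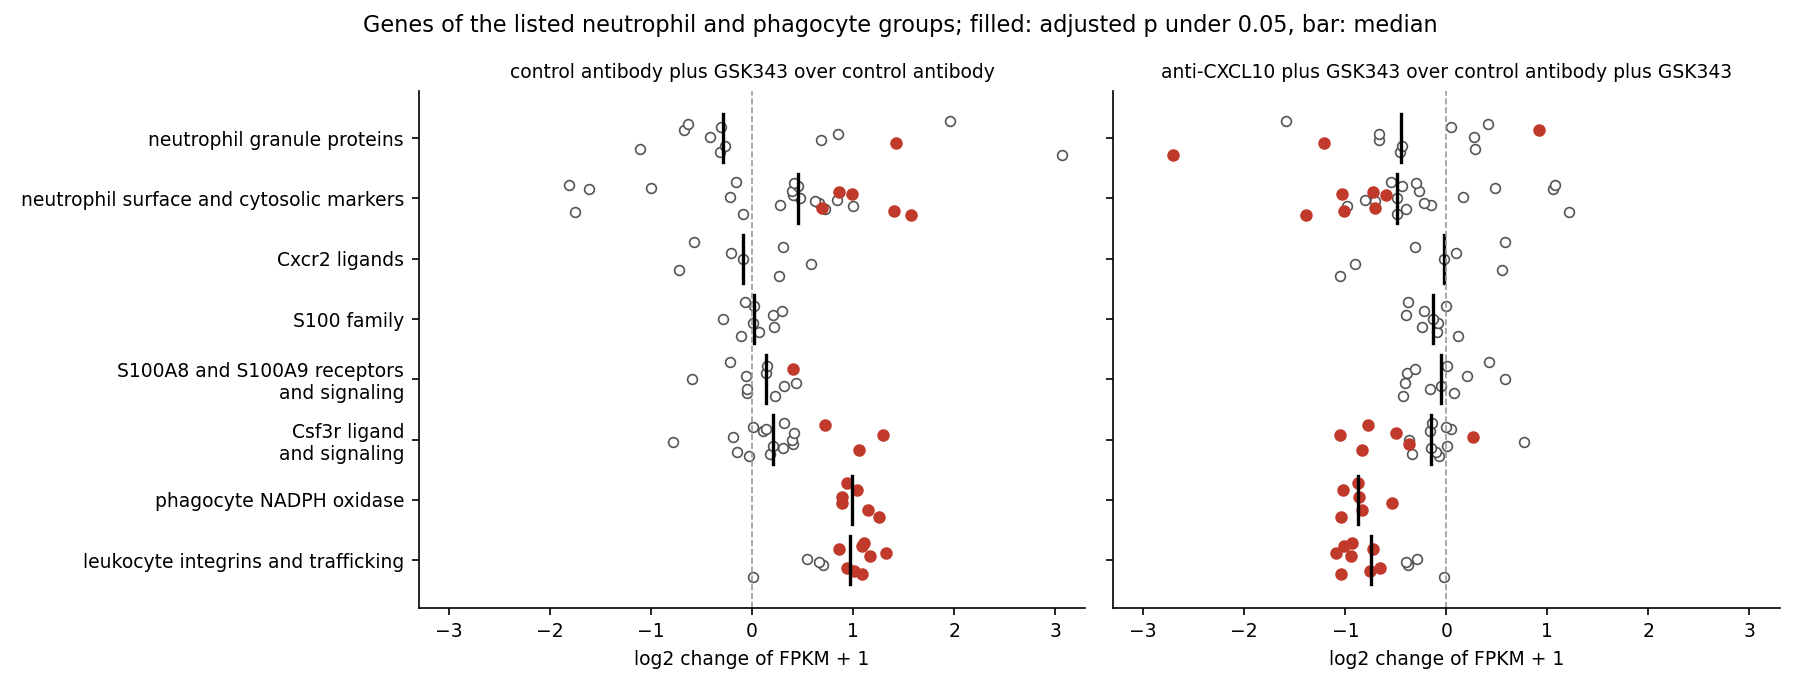
Log2 changes of FPKM + 1 (x axis) of the measured genes of 8 lists, under GSK343 with control antibody (left) and under anti-CXCL10 in GSK343-treated tumors (right), which share the control antibody plus GSK343 libraries; each point is a gene, filled where the adjusted p was under 0.05, and bars are medians. The oxidase subunits have 6 of 6 filled on each side, at medians of 0.99 and -0.87, and the CXCR2 ligands 0 of 7. Of all genes, 4.43% rose (left) and 6.83% were lower (right).

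Markers of other cell types moved in the same comparisons. Of all genes, 4.43% rose under GSK343 with control antibody, and 6.83% were lower with anti-CXCL10 in GSK343-treated tumors. Under GSK343 with control antibody 5 of 10 monocyte markers, 10 of 14 macrophage markers, 12 of 15 T cell markers and 1 of 4 eosinophil markers rose, while 0 of 7 mast cell and basophil markers passed (median 0.86). In GSK343-treated tumors 7 of 10 monocyte, 9 of 14 macrophage, 11 of 15 T cell, 2 of 4 eosinophil and 1 of 7 mast cell and basophil markers were lower with anti-CXCL10. Without the 3 muscle-rich libraries 0 of the monocyte, macrophage, T cell, mast cell and basophil markers passed in either comparison, and of the eosinophil markers 0 and 1, with medians of 0.74 (monocyte), 0.70 (macrophage) and 0.75 (T cell) under GSK343 with control antibody.

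Markers of hepatocytes and hepatoma cells, the type of the implanted line, went the other way. Of 15 such genes 3 fell under GSK343 with control antibody and 0 had a positive change (median -0.61), and in GSK343-treated tumors 6 of 15 were higher with anti-CXCL10 (median 0.57). Of all 14633 genes, 164 fell in the former comparison and 503 were higher in the latter. Without the 3 muscle-rich libraries 0 and 1 of the 15 passed, at medians of -0.52 and 0.56. Their summed FPKM was 4676 to 6833 with control antibody plus GSK343, against 7245 to 9249 with control antibody. Of 17 keratinocyte markers 0 passed under GSK343 with control antibody, but 0 had a positive change (median -0.80); without the muscle-rich libraries 10 of 17 were positive (median 0.63). Of 8 erythroid and platelet markers 0 passed in either comparison. The listed markers of monocytes, macrophages, T cells and hepatoma cells that are in the table were all above 0 FPKM in every library. By contrast, 10 of the 17 keratinocyte markers and 7 of the 19 muscle markers were at 0 in at least 1 library. The same held for 1 of the 12 neutrophil granule protein genes and 7 of the 23 neutrophil surface and cytosolic markers. For example, Ngp of the granule list was at 0 in 8 libraries and Stfa2 of the surface and cytosolic list in 14.

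Summed FPKM of the monocyte list ranged from 177 to 535 with control antibody plus GSK343, against 124 to 269 with control antibody, and for the T cell list from 149 to 374 with control antibody plus GSK343, against 74.4 to 125 with control antibody. The macrophage sum, 3788 to 5746 with control antibody plus GSK343 against 2367 to 5109 with control antibody, was mostly Apoe, which hepatoma cells also make (1931 to 4767 FPKM over all libraries). Without Apoe the sum of the other 13 macrophage markers was 1166 to 1619 with control antibody plus GSK343, against 437 to 946 with control antibody.

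Over the 19 libraries several marker scores correlated with the members, given here as a description. For Retnlg r was 0.879 with the macrophage score, 0.822 with the monocyte, 0.816 with the T cell, 0.811 with the mast cell and basophil and -0.522 with the hepatoma score. For Csf3r r was 0.827 with the monocyte, 0.821 with the mast cell and basophil, 0.768 with the macrophage, 0.703 with the T cell and -0.547 with the hepatoma score. S100a9 had r = 0.738 with the mast cell and basophil score, 0.708 with the monocyte, 0.531 with the macrophage and 0.251 with the keratinocyte score. S100a8 had r = 0.694 with the mast cell and basophil score, 0.574 with the monocyte, 0.437 with the macrophage and 0.343 with the keratinocyte score. The score of the neutrophil granule list had r from 0.653 (Retnlg) to 0.818 (S100a9), and that of the surface and cytosolic markers from 0.735 (S100a8) to 0.779 (Retnlg). The part of these other cell types in the changes of the 4 genes was not tested.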

How the data were processed

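Poly-A RNA of the tumors was analysed in 19 libraries. The deposited values are FPKM per gene made by the authors; the unit was inferred, since length-weighted column sums varied by 0.790% (coefficient of variation), against 4.06% for plain sums. Depth is unknown: the low values showed no steps of whole reads. Per the submitters' processing notes, the tools were StringTie 1.3.3b, HTSeq 0.6.0, HISAT2 2.1.0, TopHat2 2.1.0 and Trimmomatic 0.33 (builds GRCm38 and mm10); no role or strand setting is stated. Summing the 21 of 14646 rows that shared 8 gene IDs left 14633 genes, each with at least 1 FPKM in at least 4 libraries. The design text speaks of 3 replicates, the sample labels number 5.

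A limma 3.58.1 model of the 4 group means was fitted to log2(FPKM + 1) of all 19 libraries, with eBayes set to trend and robust (statmod 1.5.0, R 4.3.3); Benjamini-Hochberg adjustment ran over all genes, with a threshold of 0.05. This scale understates fold changes of genes with few FPKM. The fit was tested on simulated data. Differences between members within a library were tested by exact permutation (scipy 1.17.1). Correlations were tested by permutation, over all orders within the control antibody libraries and by 100000 resamples otherwise. Single genes were tested by limma alone. Promoters are from RefSeq, and 31-base words from GENCODE transcripts. The genes and lists were chosen with earlier results of these data known. The lists share some genes, such as Chil3, Hp and Hdc. Named genes are the members, up to 4 called genes per list by p, ligands and receptors of the members, Ly6g and the genes most like each member; Shc1, Jak2, Stat3, Cebpb and Itgam were named after their values were seen. S100pbp, which is no S100 gene, was taken out of the S100 list after its values were seen. Alternatives were another pseudocount (0.1), filters, a replicate block, fits of the compared groups alone, median-ratio and quantile scaling, marker covariates, and leaving out the 3 muscle-rich libraries or 1 library. Some genes that the naming rule picked are not reported here.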

Additional observations from a re-analysis of the deposited data

How the results depend on the processing

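The number of neutrophil genes called under anti-CXCL10 with GSK343 (2) became 1 with a pseudocount of 0.1, 1 at 5 FPKM or more in at least 4 libraries (where 3 of the genes were left), 1 with the compared groups alone, 0 with marker covariates and 0 without the 3 muscle-rich libraries. Under GSK343 with control antibody (1) it became 0 in each of the last 3. Genes called under GSK343 with control antibody (812) numbered 234 with the compared groups alone, 52 with marker covariates and 19 without the muscle-rich libraries; under anti-CXCL10 with GSK343 (1502), 89 with covariates and 505 without those libraries; under anti-CXCL10 without GSK343 (2), 1 with the compared groups alone and 0 with the replicate block, with covariates and without those libraries; for the combination against control antibody (1), 5 with the compared groups alone, 0 with the block and 2 without those libraries. The interaction (6) gave 11 at 5 FPKM, 56 with the replicate block, 10 with median-ratio and 10 with quantile scaling, 0 with covariates and 1 without those libraries. S100a8 reversed under GSK343 with control antibody (-0.045 with covariates, -0.45 without those libraries), under anti-CXCL10 with GSK343 (0.062 and 0.31) and for the combination (0.017 with covariates). For each of these the cause was not tested. With fewer libraries, power also falls.

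Leaving out 1 library at a time, genes called ranged from 306 to 1457 (GSK343 with control antibody), 0 to 1 (GSK343 with anti-CXCL10), 0 to 2 (anti-CXCL10 without GSK343), 877 to 1913 (anti-CXCL10 with GSK343), 0 to 2 (combination) and 0 to 504 (interaction), and neutrophil genes called from 0 to 2 under GSK343 with control antibody and from 0 to 2 under anti-CXCL10 with GSK343, with 0 in the others. Signs changed for S100a8 under GSK343 with control antibody (-0.28 to 0.66), in the combination (-0.63 to 0.29) and in the interaction (-0.35 to 0.59), for S100a9 in the combination (-0.58 to 0.11) and in the interaction (-0.28 to 0.41), for Csf3r under GSK343 with anti-CXCL10 (-0.0099 to 0.23) and in the combination (-0.27 to 0.020), and for Retnlg under anti-CXCL10 without GSK343 (-0.72 to 0.14). Groups share replicate numbers, and the deviations of same-numbered libraries had correlations from -0.17 to 0.32. Differently numbered libraries were not compared, so these values cannot tell whether the numbers pair the libraries. Replicate 2 had the highest keratinocyte score of its group in each group. With the replicate block Retnlg changed by 1.84 under GSK343 with control antibody (limma adjusted p = 0.0115), and no call of a neutrophil gene was lost or gained. Depth is unknown and sets no limit that can be given here.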
